A study of Mus musculus with 8 samples.

Results

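Genes of the constitutive proteasome were compared between gastrocnemius muscle of mice lacking Hdac5, a class IIa histone deacetylase, and of wild type littermates. They were chosen by symbol, as Psma, Psmb, Psmc or Psmd followed by a digit and without Psmb8, Psmb9 and Psmb10, which left 37 of the 19938 genes on the arrays. Single-channel Affymetrix mouse arrays gave 1 log2 signal per gene and sample for 4 knockout and 4 wild type samples. Per the labels, the mice were 30 weeks old, ate a low-fat chow and had no further treatment. Sex, strain background, the deleted stretch of Hdac5 and whether a Cre line was used are not stated in the labels. Whether each numbered sample was a separate animal is not stated, and p-values here therefore cover the spread among samples, which may be partly technical. The study asked what HDAC5 does to interleukin 6 and to genes that interleukin 6 regulates, and the proteasome genes were not its stated subject.

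The proteasome is the protease that degrades proteins tagged with ubiquitin. Its core particle is a barrel of outer alpha rings, which gate the entrance, and inner beta rings, which hold the catalytic sites, and a regulatory particle, made of a base with ATPases and a lid, binds ubiquitin chains, unfolds the substrate and feeds it in. In skeletal muscle this system removes myofibrillar proteins, and many of its genes are known to be induced together in wasting muscle or when the transcription factor NRF1 (Nfe2l1) senses too little proteasome activity.

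The symbol rule takes in some genes that are not subunits of the standard particle. Psma8 is the germ cell alpha subunit and Psmb11 the catalytic subunit of thymic epithelium, and their signals lay at the 19.8th and 28.3rd percentiles of gene signals. Psmd5, Psmd9 and Psmd10 encode chaperones that help assemble the base, and Psmc3ip encodes a cofactor of meiotic recombination that only binds an ATPase subunit (39.6th percentile). The other 31 members are subunits of the standard particle, so the label of constitutive subunits holds for those. In all, 34 of the 37 members had a mean signal above that of the median gene.

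Fibre markers and the targeted gene matched the labels. All 10 fibre markers, among them Acta1, Ckm and Myh4, lay at or above the 99.8th percentile of gene signals. Hdac5 was at 9.94, 9.76, 9.83 and 9.80 in wild type samples 1 to 4 and at 8.32, 8.31, 8.31 and 8.39 in the knockout samples (difference -1.50, limma SE 0.059). Arrays correlated at 0.988 to 0.995 over all probe sets. The arrays that lay farthest apart on the first principal component were knockout sample 1 and wild type sample 4, called the outer arrays below. Several of the values below are given without this pair too, a setting chosen after seeing the data. Of genes above the median signal, 66.8% lay above their own mean in knockout sample 1 and 23.6% in wild type sample 4. Leaving out both therefore tends to lower knockout minus wild type for bright genes. A fall or a turn of sign without the pair is partly built in. Of the lists of other fibre and cell types, some differed between the genotypes in their mean and others did not. The mean of 7 slow fibre markers (0 higher in knockout, 7 lower) was 10.73 to 11.39 in knockout and 11.46 to 11.87 in wild type samples, that of 11 macrophage markers (10 higher) 8.40 to 8.73 against 8.15 to 8.49, and that of 7 fibroblast markers (7 higher) 10.71 to 11.10 against 10.57 to 10.88. Tendon markers (4 lower of 4) were at 9.04 to 9.47 against 9.31 to 9.70 and Schwann cell markers (2 lower of 2) at 9.17 to 9.53 against 9.38 to 9.98. Endothelial markers, at 10.35 to 10.68 against 10.41 to 10.55, and lymphocyte markers, at 6.55 to 6.71 against 6.58 to 6.67, covered like ranges. The adipocyte list overlapped too but spread far more widely among wild type samples (8.00 to 8.60 against 7.35 to 9.45). The 1 red blood cell marker overlapped and spread more among knockout samples (7.51 to 7.89 against 7.81 to 7.85). The part of these cell types in the results below was not tested, and in whole muscle fewer cells of a type and less RNA per cell cannot be told apart.

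No proteasome gene separated the genotypes at the threshold used, an adjusted p under 0.05 in limma over all 19938 genes. Of the 37 members 0 passed, where 13 genes (0.0652%) passed over the whole array. The lowest adjusted p of a member was 0.461, for the catalytic subunit gene Psmb6. The median change of the members, knockout minus wild type, was 0.012 on the log2 scale, beside 0.0030 over all genes, and 30 of the 37 differed by less than 0.1. Its sign was not stable, since the members' median was -0.0048 when knockout sample 1 was dropped, -0.0055 for knockout sample 2, -0.0069 for wild type sample 2 and -0.013 without the outer arrays. After quantile normalization the members' median was 3.1e-06, and after median centring 0.0044. The 95% intervals hold for each gene taken singly and are not joint limits for the 37 genes. Over all 37 genes they ran from -0.30 (Psmd8) to 0.32 (Psmd14), which is 0.811-fold to 1.24-fold of the wild type signal.

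**Figure D1:**
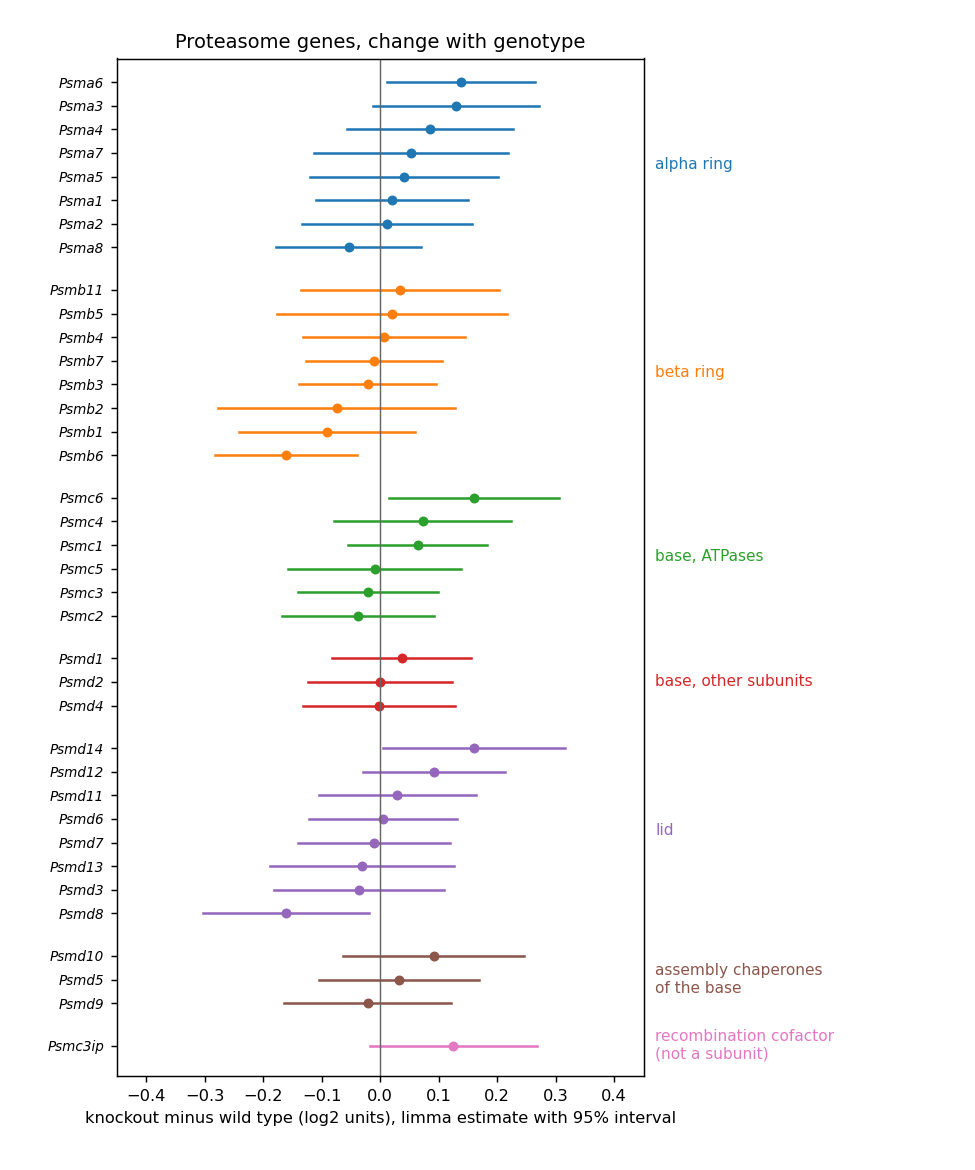
Change of each of the 37 proteasome genes (points, knockout minus wild type in log2 units) with its 95% interval from limma (lines), ordered within the part of the particle that the gene encodes. The points lie between -0.16 and 0.16, and 5 intervals leave out 0.

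At an unadjusted p under 0.05 in limma, 3 members were higher and 2 lower, which is 13.5% of the members where 7.90% of all genes met that mark (4.72% higher and 3.18% lower). The 5 were Psmb6, Psmd8, Psmc6, Psma6 and Psmd14, from the beta ring, the lid, the ATPases, the alpha ring and again the lid. Leaving out wild type sample 2 kept Psmb6 alone, and leaving out knockout sample 1 or 2 kept Psmb6 and Psmd8. The count was 3 when knockout sample 4 or wild type sample 4 was dropped, and 2 (Psma3 and Psmb6) without the outer arrays. The genotypes had no overlap for 2 members, 5.41% beside 4.90% of all genes. Psma6 was higher in all knockout samples, as were 2.91% of all genes, and Psmb6 lower in all of them, as were 1.99%.

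In the outer alpha rings, 7 of 8 genes had a higher mean in knockout muscle, where 51.4% of all genes did, and the exception was Psma8. Psma5 counts as higher by its brighter probe set (0.041), while its other probe set gave -0.048. The count was 6 after quantile normalization and 5 without the outer arrays. With the mean of a gene's probe sets the median change of the alpha ring was 0.036. The main median change of 0.047 was 0.017 without the outer arrays and 0.025 to 0.088 with 1 sample left out. Psma6 was at 11.57, 11.58, 11.51 and 11.48 in knockout samples 1 to 4 and at 11.46, 11.39, 11.44 and 11.30 in wild type samples. The lowest knockout sample cleared the highest wild type sample by little, and the difference was 0.14 (SE 0.058, unadjusted p = 0.0345 and adjusted p = 0.579 in limma). Psma3, a further alpha subunit, had knockout values of 13.11, 13.10, 13.16 and 13.03 against 13.02, 12.95, 12.83 and 13.08. Here wild type sample 4 lay among the knockout samples, and the difference was 0.13 (SE 0.065, unadjusted p = 0.070 in limma). Psma4, Psma7, Psma5, Psma1 and Psma2 differed by 0.086, 0.053, 0.041, 0.020 and 0.012, each with an interval that included 0, and Psma8 by -0.054.

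The inner beta rings hold the 3 proteolytic sites, in Psmb6 (caspase-like activity), Psmb7 (trypsin-like) and Psmb5 (chymotrypsin-like). Psmb6 read 12.38, 12.36, 12.30 and 12.43 in the knockout samples and 12.50, 12.49, 12.55 and 12.58 in the wild type samples. All 4 knockout values lay below all 4 wild type values, with a difference of -0.16 (SE 0.056, 95% interval -0.28 to -0.04, 0.894-fold). Its unadjusted p of 0.0132 in limma was the smallest of the members, and it was between 0.00165 and 0.0430 under 16 other settings of the analysis, among them 0.0358 without the outer arrays. Its adjusted p did not come below 0.169 in any of them.

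The other catalytic genes had smaller differences. Psmb7 was at 12.94, 12.91, 12.85 and 12.90 in knockout and at 12.94, 12.90, 12.86 and 12.95 in wild type samples. These were among the most even values of all members, with a difference of -0.011 (95% interval -0.13 to 0.11). Psmb5 was at 10.001, 9.71, 9.85 and 9.79 in knockout and at 10.02, 9.83, 9.81 and 9.60 in wild type samples. Its samples spread widely in both genotypes, and the difference of 0.020 (SE 0.090) had an interval of -0.18 to 0.22. It turned to -0.11 without the outer arrays (unadjusted p = 0.182 in limma). Whether Psmb6 differed from Psmb7 and Psmb5 in its change was not tested. Of the non-catalytic beta subunits, Psmb1 differed by -0.091, Psmb2 by -0.075, Psmb3 by -0.022 and Psmb4 by 0.0069, and thymic Psmb11 by 0.034. The beta ring median was -0.016, with 5 of 8 genes lower. Without the outer arrays, 7 of 8 were lower and the median was -0.075.

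**Figure D2:**
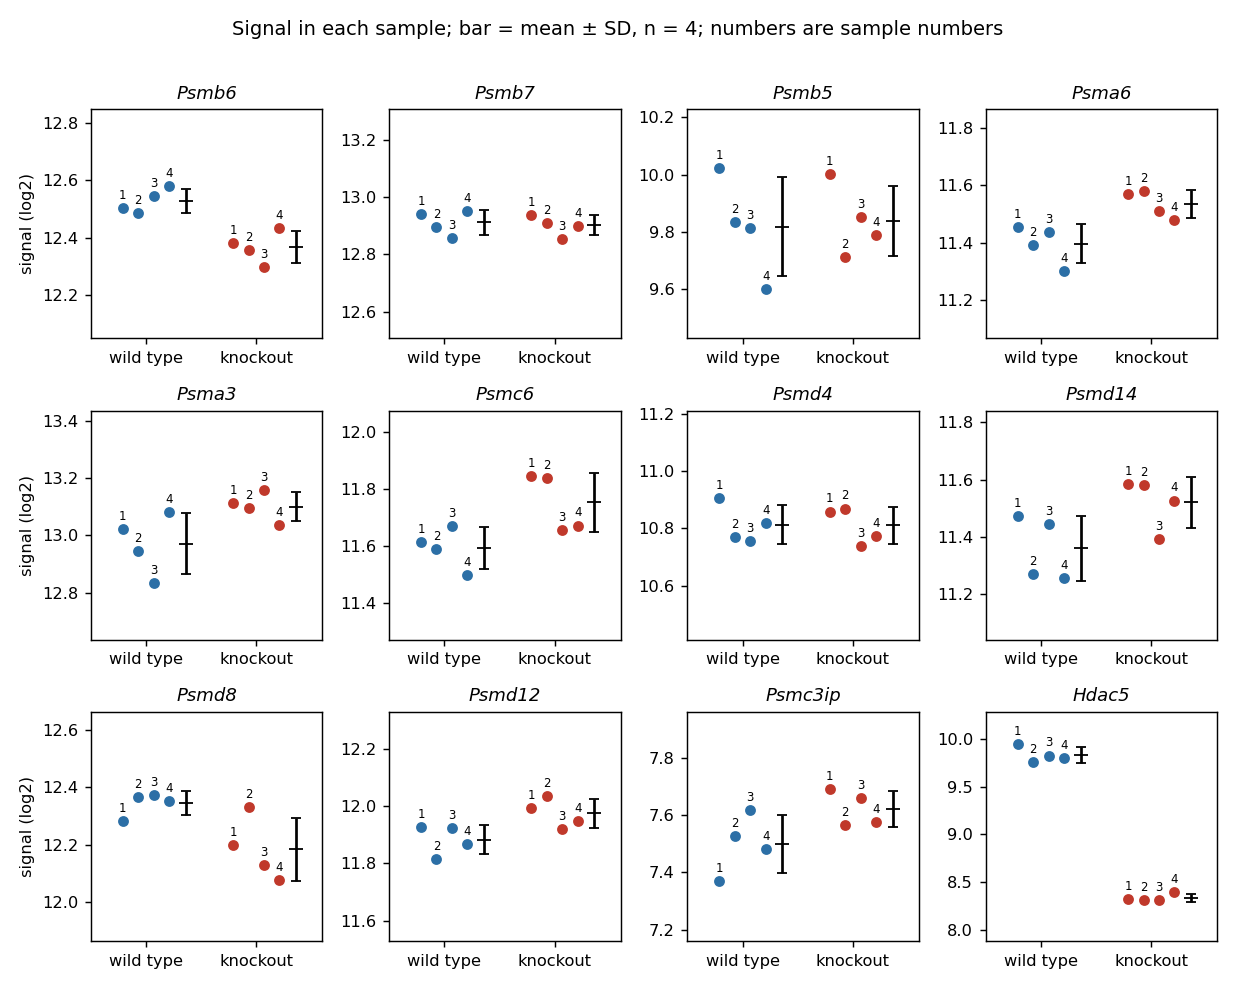
Log2 signal of 11 proteasome genes and of Hdac5 in each sample (points, numbered as in the labels), with the mean and SD of each genotype (n = 4). The Hdac5 panel spans a wider range than the others, and of these 12 genes Psmb6, Psma6 and Hdac5 show no overlap between genotypes.

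The base of the regulatory particle turns ATP hydrolysis into unfolding through its ring of Psmc subunits. Psmc6, 1 of those ATPases, was at 11.85, 11.84, 11.66 and 11.67 in knockout and at 11.62, 11.59, 11.67 and 11.499 in wild type samples. Knockout samples 1 and 2 stood above the rest and samples 3 and 4 met wild type sample 3, so that the difference of 0.16 (SE 0.067, unadjusted p = 0.0342 and adjusted p = 0.577 in limma) was 0.097 without the outer arrays. The other ATPase genes differed by 0.072 (Psmc4), 0.064 (Psmc1), -0.0093 (Psmc5), -0.021 (Psmc3) and -0.038 (Psmc2). Of the scaffold subunits, Psmd1 differed by 0.037 and Psmd2 by -0.00018, the smallest change of any member. Psmd4, a receptor for ubiquitin chains, had knockout values of 10.86, 10.87, 10.74 and 10.77 and wild type values of 10.91, 10.77, 10.75 and 10.82. The genotypes covered the same range, with a difference of -0.0023 (95% interval -0.13 to 0.13).

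The lid carries Psmd14, the deubiquitinase that cuts ubiquitin chains off substrates as they enter. It was at 11.58, 11.58, 11.39 and 11.53 in knockout and at 11.47, 11.27, 11.45 and 11.26 in wild type samples. Knockout sample 3 lay below wild type samples 1 and 3, and the difference was 0.16 (SE 0.071, 1.12-fold, unadjusted p = 0.0443 and adjusted p = 0.611 in limma). It was 0.11 (unadjusted p = 0.204) without the outer arrays. Psmd8, a structural lid subunit, went the other way, with 12.20, 12.33, 12.13 and 12.08 in knockout and 12.28, 12.37, 12.37 and 12.35 in wild type samples. Knockout sample 2 lay among the wild type samples, and the difference was -0.16 (SE 0.065, 0.894-fold, unadjusted p = 0.0292 and adjusted p = 0.550 in limma). Psmd12, a further structural lid subunit, was at 11.99, 12.04, 11.92 and 11.95 against 11.93, 11.82, 11.92 and 11.87. Those ranges met near 11.92, with a difference of 0.092 (SE 0.056, unadjusted p = 0.127 in limma). The remaining lid genes Psmd11, Psmd6, Psmd7, Psmd13 and Psmd3 differed by 0.029, 0.0047, -0.011, -0.031 and -0.036.

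Of the 4 members that encode no proteasome subunit, 0 reached an unadjusted limma p below 0.05. That mark was met by 7.90% of all genes, so 0 of 4 says little about these members. Assembly chaperones Psmd10, Psmd5 and Psmd9 had changes of 0.091, 0.031 and -0.021. Psmc3ip, the recombination cofactor, was at 7.69, 7.56, 7.66 and 7.57 in knockout and at 7.37, 7.53, 7.62 and 7.48 in wild type samples. The genotypes overlapped, with a difference of 0.12 (SE 0.065, unadjusted p = 0.0817 in limma).

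The promoters of 4 of the 5 genes with an unadjusted p under 0.05, and of the catalytic gene Psmb5, are shown, the former for their differences and Psmb5 as a catalytic gene with little difference, since proteasome promoters are known for antioxidant response elements, the sites of NRF1, and for CCAAT boxes, the sites of NF-Y. The sequences are upstream bases from RefSeq on assembly GRCm38.p6, read 5′ to 3′ along the gene, ended before the annotated gene body. Capitals mark TGACNNNGC or CCAAT on either strand.
Psmb6, chr11:70525107-70525323, plus strand: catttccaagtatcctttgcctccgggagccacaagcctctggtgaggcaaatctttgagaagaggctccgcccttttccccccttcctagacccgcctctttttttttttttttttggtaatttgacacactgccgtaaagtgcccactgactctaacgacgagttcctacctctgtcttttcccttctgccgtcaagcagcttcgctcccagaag
Psmb6 site, chr11:70525337-70525366, plus strand: actaaagagagTGACGGAGCgctttacgac
Psmb5, chr14:54617996-54618245, minus strand: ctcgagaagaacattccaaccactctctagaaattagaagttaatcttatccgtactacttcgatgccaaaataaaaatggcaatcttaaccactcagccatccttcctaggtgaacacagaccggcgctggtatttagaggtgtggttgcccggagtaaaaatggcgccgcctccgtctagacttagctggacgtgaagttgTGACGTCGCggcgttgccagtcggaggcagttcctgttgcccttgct
Psmd8, chr7:29180674-29180923, minus strand: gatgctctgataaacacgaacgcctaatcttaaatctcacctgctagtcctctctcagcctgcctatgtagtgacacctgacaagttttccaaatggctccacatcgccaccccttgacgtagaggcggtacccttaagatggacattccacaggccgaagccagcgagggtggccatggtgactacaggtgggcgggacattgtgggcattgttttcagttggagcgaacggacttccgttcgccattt
Psmc6, chr14:45329574-45329822, plus strand: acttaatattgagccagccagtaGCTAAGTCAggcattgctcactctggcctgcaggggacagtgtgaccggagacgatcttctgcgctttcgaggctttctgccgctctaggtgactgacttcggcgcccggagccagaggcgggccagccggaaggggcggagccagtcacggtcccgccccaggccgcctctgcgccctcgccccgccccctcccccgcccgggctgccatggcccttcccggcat
Psmd14, chr2:61711444-61711693, plus strand: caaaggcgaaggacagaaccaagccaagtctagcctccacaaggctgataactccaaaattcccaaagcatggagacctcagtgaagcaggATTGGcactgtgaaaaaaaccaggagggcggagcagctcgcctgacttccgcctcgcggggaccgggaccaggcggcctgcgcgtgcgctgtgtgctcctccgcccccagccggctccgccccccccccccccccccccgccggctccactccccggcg
A TGACNNNGC match was found in Psmb6 (beginning 9 bases before the start of the window's transcript, inside the annotated gene body, and shown as a window of 30 bases), in Psmb5 (47 bases before) and in Psmc6 (227 bases before), and a CCAAT match in Psmd14 (159 bases before, on the other strand). Further CCAAT matches of Psmd14 began at bases 5 and 8 from the start, beyond the bases shown. None of the marked letters was found in the Psmd8 window, which says nothing of the factors. Psma6 has 2 windows in the table and is not shown. It had CCAAT matches beginning 136 and 29 bases before the start.

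Over all members the motifs were about as frequent as elsewhere. RefSeq windows of 300 bases (32 windows of 30 members) held TGACNNNGC in 5, or 15.6%, where 12.4% of all 32851 windows did, and CCAAT in 13, or 40.6%, where 37.4% did. The MEF2 box, the site of the factors that HDAC5 represses, was in 0 of the 32 windows and in 0.557% of all windows. A match is a run of letters and was not measured as a site.

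The proteasome genes tended to be high or low together in a sample. For each gene the deviation of a sample from the gene's own mean over the 8 arrays was taken. In wild type sample 1 and in the knockout samples numbered 1 and 2, 28, 29 and 29 of the 37 members lay above their own mean, with median deviations of 0.035, 0.054 and 0.055. In wild type sample 2 and the knockout samples numbered 3 and 4, 8, 9 and 12 did, with medians of -0.043, -0.024 and -0.018. Wild type samples 3 and 4 had 18 and 15. High and low samples were found in both genotypes. Other bright genes shifted too on the deposited values: of the 9969 genes above the median signal, 62.7%, 66.8% and 60.6% lay above their own mean in the first 3 samples named and 49.5%, 44.8% and 45.2% in the next 3, with 23.6% in wild type sample 4. After quantile normalization those bright genes stood at 48.7% to 51.9% in every sample, while the members had 26, 23 and 26 above their mean in the first 3 samples and 10, 16 and 17 in the next 3. Wild type sample 3 then had 14, fewer than knockout samples 3 and 4, and wild type sample 4 had 19.

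**Figure D3:**
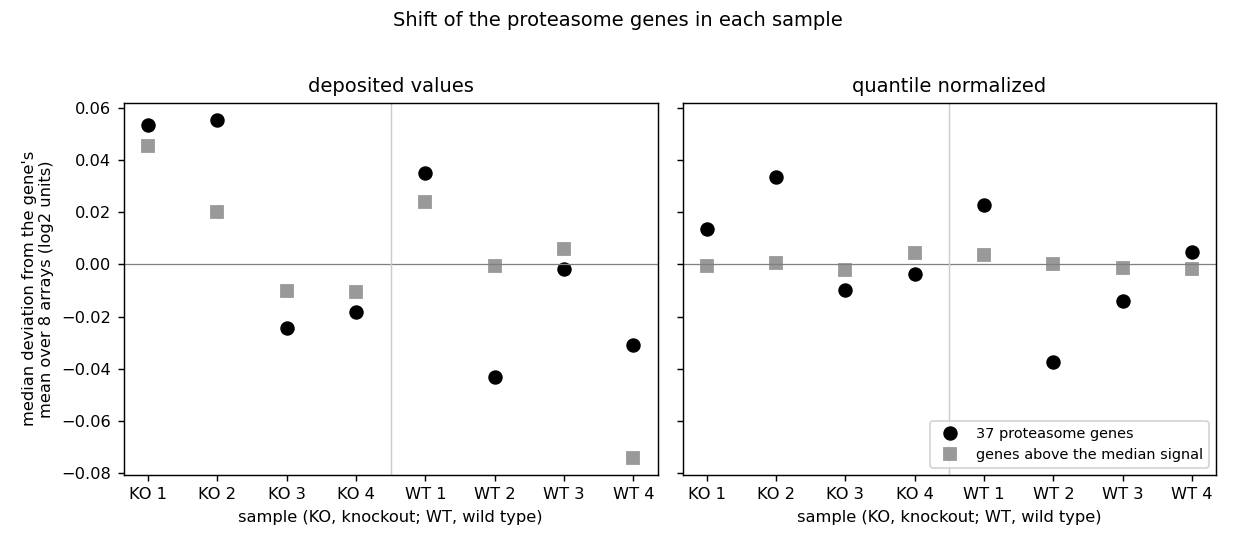
Median deviation of the 37 proteasome genes (black circles) and of all genes above the median signal (grey squares) from each gene's own mean over the 8 arrays, in log2 units, on the deposited values (left) and after quantile normalization (right). The members of wild type sample 1 and knockout samples 1 and 2 are high in both panels, and wild type sample 2 is low.

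Within a genotype the members were steady. Their pooled within-genotype SD ranged from 0.039 (Psmb7) to 0.16 (Psmb2) with a median of 0.083, and 30 of the 37 lay below the median of 0.101 over all genes. The members were not compared with genes of equal signal.

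Of the members, 5 had more than 1 probe set. Psma3 differed by 0.13 on the probe set used and by 0.11 and 0.13 on the others, Psmc1 by 0.064 and 0.11, and Psmd2 by -0.00018 and -0.0026. Psma5 (0.041 and -0.048) and Psmb3 (-0.022 and 0.013) changed sign between probe sets, at sizes below 0.05. Proteasome genes have processed copies elsewhere in the genome, so the assignment of a probe set to 1 gene is uncertain.

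In all, 7 members lie on chromosome 11, as Hdac5 does. By gene order in the RefSeq table, Psmc3ip was the nearest, with 44 tested genes between it and Hdac5, followed by Psmc5 with 67 and Psmd12 with 88. Psmd3, Psmb3 and Psmd11 were separated by 138, 170 and 397 genes. Psmb6, the gene of smallest p, was the farthest, with 612 genes between.

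Lists of other genes of the ubiquitin-proteasome pathway were read in the same way. Of 54 measured genes in 8 lists, 0 passed the adjusted threshold in limma, where 0.0652% of all genes did, and 2 were higher and 0 lower at an unadjusted p under 0.05, where 4.72% and 3.18% of all genes were. The median change was 0.023.

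The immunoproteasome subunits replace the catalytic beta subunits in immune cells and under interferon. Psmb8, the counterpart of Psmb5, differed by 0.020, Psmb9, the counterpart of Psmb6, by -0.067, and Psmb10, the counterpart of Psmb7, by 0.084 (0.015 without the outer arrays). Their 95% intervals all included 0. Of the 11 macrophage markers, 10 had a higher mean in knockout muscle, 7 of them with an unadjusted limma p under 0.05. Of all genes, 4.72% were higher at that mark. So were 4 of 7 fibroblast markers, while 7 of 7 slow fibre, 2 of 4 tendon and 1 of 2 Schwann cell markers were lower at it. Of all genes 3.18% were lower. A link of the macrophage markers to the immunoproteasome genes was not tested. The interferon-induced activator is built from Psme1 and Psme2. Psme1 was at 10.63, 10.64, 11.00 and 10.72 in knockout and at 10.91, 10.83, 10.86 and 10.94 in wild type samples. Knockout sample 3 was the highest of all 8 and the other 3 knockout samples the lowest, with a difference of -0.14 (SE 0.081, unadjusted p = 0.117 in limma). It was -0.22 without knockout sample 3 (unadjusted p = 0.00454 and adjusted p = 0.424 in limma) and -0.080 without the outer arrays. Leaving out knockout sample 3 was the only 1 of 16 other settings that gave Psme1 an unadjusted p under 0.05. Psme2 differed by -0.00023.

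Among other regulators of the particle, Psme4, an activator that caps the core, was at 12.99, 12.94, 12.94 and 12.83 in knockout and at 12.81, 12.75, 12.86 and 12.79 in wild type samples. Only wild type sample 3 reached into the knockout range, and the difference was 0.12 (SE 0.057, unadjusted p = 0.0517 in limma). The inhibitor Psmf1 differed by 0.13 (SE 0.077), which was 0.066 without knockout sample 1 and 0.060 without the outer arrays, and the nuclear activator Psme3, which lies 30 tested genes from Hdac5, by 0.060. All 3 had a higher mean in knockout muscle. Of 5 core particle assembly factors 4 had a lower mean, led by Psmg2 (-0.081) and Pomp (-0.074). In limma 0 of them had an unadjusted p under 0.05, where 7.90% of all genes did.

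Usp14, the deubiquitinase that rests on the base and trims ubiquitin chains, was at 10.92, 11.05, 10.83 and 10.87 in knockout and at 10.78, 10.69, 10.80 and 10.74 in wild type samples. The genotypes did not overlap, and the difference was 0.16 (SE 0.063, 1.12-fold, unadjusted p = 0.0220 and adjusted p = 0.508 in limma). Ecpas, which tethers core and regulatory particle, did not overlap either (difference 0.067), and the lid subunit Sem1 differed by -0.090. Of all genes, 2.91% were higher in knockout without overlap. Of the 8 genes in this list 1 was higher at an unadjusted p under 0.05 in limma, where 4.72% of all genes were.

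Uba6, an enzyme that activates ubiquitin and the modifier FAT10, showed the largest difference of the 54 genes. It was at 9.42, 9.39, 9.33 and 9.17 in knockout and at 9.18, 9.08, 9.21 and 8.97 in wild type samples. Knockout sample 4 lay below wild type samples 1 and 3, and the difference was 0.22 (SE 0.074, 1.17-fold, unadjusted p = 0.0115 and adjusted p = 0.453 in limma). It was 0.14 without the outer arrays (unadjusted p = 0.0793). It was the only 1 of its list measured by a single-symbol probe set.

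Regulators of subunit transcription showed no detectable difference. Nfe2l1, which encodes NRF1, was at 12.31, 12.34, 12.33 and 12.32 in knockout and at 12.36, 12.35, 12.34 and 12.23 in wild type samples. Its values were nearly level apart from wild type sample 4, with a difference of 0.0077 (95% interval -0.11 to 0.13). NRF1 is regulated mainly as a protein, which arrays do not show. Of the 11 genes, 4 had a higher and 7 a lower mean, with Nfyc (-0.086) and Nfe2l2 (-0.051) at the smallest p. The shuttle receptors and the segregase Vcp with its partners (10 genes) had a median change of 0.038, which was -0.013 without the outer arrays, 0.016 when knockout sample 1 was dropped and 0.013 for wild type sample 4. Ubqln1 differed by 0.086 (0.052 without the outer arrays), with Rad23b at 0.071 and Vcp at -0.048.

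Among 11 muscle ubiquitin ligases, which send proteins to the proteasome in wasting muscle, 0 reached an unadjusted limma p below 0.05. As only 7.90% of all genes did so, 0 of 11 does not set the ligases apart. Trim63 (MuRF1) differed by -0.031 and Fbxo32 (atrogin-1) by -0.052, with 95% intervals of -0.18 to 0.12 and -0.21 to 0.10. Fbxo40, a muscle ligase of the insulin pathway, was at 12.76, 12.77, 12.79 and 12.75 in knockout and at 12.82, 12.86, 12.79 and 12.86 in wild type samples. Wild type sample 3 and knockout sample 3 met at 12.79 without crossing, with a difference of -0.063 (SE 0.051, unadjusted p = 0.244 in limma). Of all genes, 1.99% were lower in knockout without overlap. Fbxo30 differed by 0.084 (0.028 without the outer arrays).

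**Figure D4:**
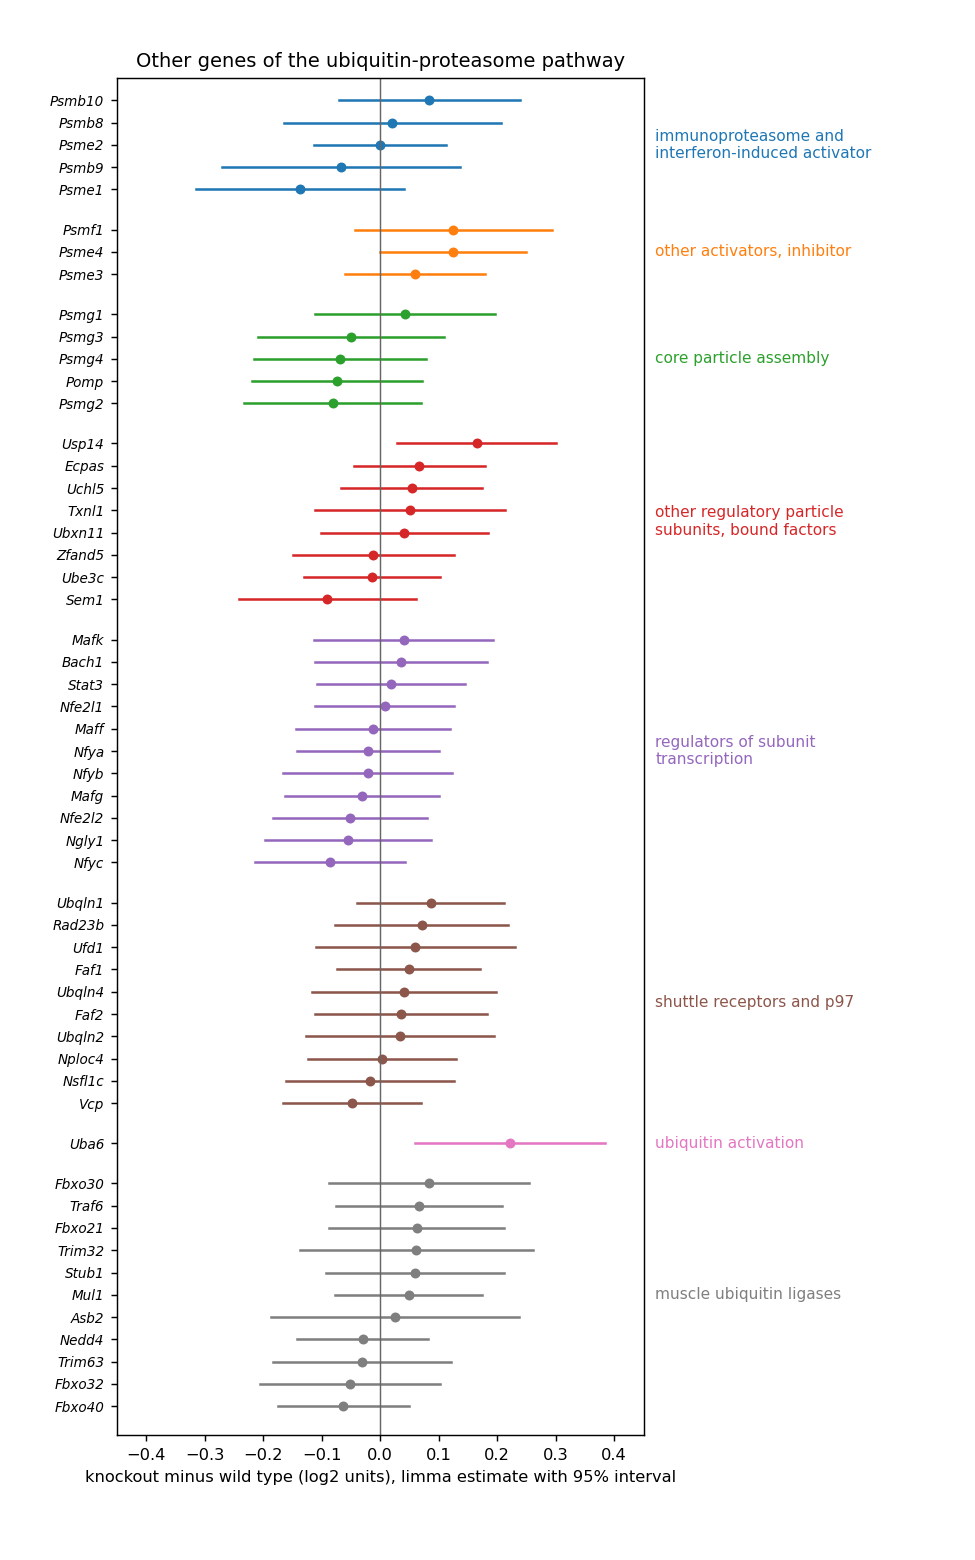
Change of 54 other genes of the ubiquitin-proteasome pathway (points, knockout minus wild type in log2 units) with the 95% interval from limma (lines), grouped by list. The intervals of Usp14 and Uba6 leave out 0 and 0 genes passed the adjusted threshold.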

How the data were processed

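Total RNA of gastrocnemius muscle (integrity number above 8, 150 ng per array, per the labels' protocols) was hybridised to 8 arrays, 4 per genotype. The deposited values are log2 signals, 1 per probe set, which the authors made with Affymetrix Expression Console 4.0 per the submitters' processing notes. The background correction, summarisation, normalization and genome build behind them are not stated in these sources. Their log2 scale was inferred from their range. The number of arrays limits the precision.

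Of 35556 probe sets, 21789 had 1 symbol in the platform annotation, and a gene with several was represented by its brightest on average (19938 genes). Of those with 1 symbol, 21698 had an Entrez identifier in the RefSeq table of GRCm38.p6, and 0 symbols changed. The values were not normalized again. Genotype was fitted with limma 3.58.1 (lmFit, eBayes) in R 4.3.3 over all genes, with Benjamini-Hochberg adjustment. SE and 95% intervals are limma's. The fit was tested on simulated data with the same number of arrays, in which the samples of a gene varied independently. At the adjusted threshold it recovered 20.6% of changes of 0.25 log2 units and 79% of changes of 0.5. Smaller changes were not simulated.

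Members, gene lists and tests were chosen with earlier results of these data known. Every member is given by its change. Values in each sample are given for the catalytic subunits, Psmd14, Psmd4, Hdac5, the 8 members of smallest p and those without overlap. Of each pathway list, up to 4 genes with an unadjusted p under 0.05 were named, otherwise the 2 of smallest p. Further pathway genes, and the values of Nfe2l1 in each sample, were chosen after their values were seen. Alternatives were quantile normalization, median centring, a filter on dim genes, trended and robust eBayes, array weights, the mean of a gene's probe sets, the sample number as a block, and each sample left out. Plots used matplotlib 3.10.9 in Python 3.11.15.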

Additional observations from a re-analysis of the deposited data

Results flagged for a closer look

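In 4 of 104 groups of 4 samples, over the members, Hdac5 and the pathway genes named by rule, 1 sample lay far from the other 3 by Dixon's criterion, where chance, marking about 1 in 20 groups, gives 5.2. Psma1 was at 12.14 in knockout sample 2 and no higher than 12.00 in the other knockout samples. Psma5 was at 9.75 in knockout sample 3 and at least at 9.94 in the others. Psmd2 was at 12.31 in knockout sample 4 and at least at 12.35 in the others. Hdac5 was at 8.39 in knockout sample 4 and no higher than 8.32 in the others.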

How the results depend on the processing

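Under 15 other settings and 1 chosen after seeing the data (knockout sample 1 and wild type sample 4 both left out), 0 members passed the adjusted threshold, and the lowest adjusted p of a member was 0.169 (Psmb6, trended and robust eBayes). Over all genes the count of 13 was 31 with array weights, 33 with dim genes left out, 44 with trended and robust eBayes, 5 without both samples, and 5 to 20 with 1 sample left out (8 without knockout sample 1, 7 without knockout 2, 20 without knockout 4, 8 without wild type 1, 5 without wild type 2 or wild type 4). The 5 members at an unadjusted p under 0.05 were 2 after median centring and 2 without both samples, and 1 to 5 with 1 sample left out. The 2 members without overlap were 1 after median centring, 4 after quantile normalization, 4 without both samples, and 2 to 5 with 1 sample left out (4 without knockout 2, wild type 1 or wild type 3, 5 without knockout 3). Smaller groups lack overlap more easily, so the counts with samples left out cannot be set against the main count. The share of all genes without overlap was not counted under these settings. The median of the immunoproteasome list was -0.044 with array weights and -0.058 to 0.012 with 1 sample left out, and that of the beta ring -0.075 without both samples and -0.041 to -0.0047 with 1 left out. Without both samples the medians of the shuttle, ligase and base chaperone lists turned negative (-0.013, -0.011 and -0.014), and so did that of all members (-0.013). The cause of these shifts was not tested. Same-numbered samples of the genotypes did not deviate together throughout (correlations of 0.34, -0.11, -0.15 and 0.34). Differently numbered samples gave correlations of -0.33 to 0.20. Such correlations cannot decide whether the numbers pair the samples. With the number as a replicate block 30 genes passed, 0 of them members. Psmb6, Psmd8, Psmc6, Psma6, Psmd14, Usp14 and Uba6 kept their sign in all 16 settings, and so did Psmd12, Psmg2, Pomp, Nfyc and Nfe2l2. The settings refit the same arrays, or most of them, from which these genes were named by p. Their kept sign is therefore no independent support.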
